A study of Mus musculus with 15 samples.

Results

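Oligodendrocyte lineage and myelin genes were followed in RNA-seq libraries of mouse brainstem. The members are Olig1, Olig2, Sox10 and Pdgfra, which mark the lineage and its progenitors, and Cnp, Mbp, Mag, Mog and Mobp, which encode myelin proteins. They were found by matching Ensembl identifiers to symbols and are 9 of the 57180 genes listed. The 15 libraries come from 2 experiments on C57BL/6 mice. In the AMPK experiment, 3 libraries were labelled AMPK+/+ and 3 AMPK-/-. The deleted subunit is AMPKα2, and the AMPK+/+ mice were littermates. In the LMX1B experiment, 3 libraries each were labelled LMX1B+/+, LMX1B+/- and LMX1B-/-, and the study calls the wild-type mice littermates here too. The study describes its AMPK mice as newborn and the LMX1B tissue as prenatal. The methods give an age of postnatal days 1 to 5 for mice in general, without tying it to the AMPK libraries, which are called newborn here on that ground only, and a day of gestation is not given in the sources used here for the LMX1B libraries. Nothing in the labels names a treatment, a Cre driver, how the alleles were made or whether animals were pooled. Since the labels do not say that replicates came from separate animals, p-values measure only the spread between these libraries.

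Oligodendrocytes wrap axons of the central nervous system in myelin. Their progenitors arise from the ventral and later the dorsal neural tube under the transcription factors OLIG2, OLIG1 and SOX10, divide and migrate while they carry the receptor PDGFRA, and then leave the cell cycle and switch on the myelin program, which SOX10 drives together with MYRF. In rodents the brainstem and spinal cord myelinate earlier than the forebrain, around birth. OLIG2 also specifies motor neurons, SOX10 is made by Schwann cells of peripheral nerves, and PDGFRA is made by fibroblasts of the meninges, so none of these transcripts belongs to the oligodendrocyte lineage alone.

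The promoter sequence of Mobp, the member with the largest fold change wherever members were called, is shown beside those of 2 other myelin genes and of Olig2. Sequences are from RefSeq on GRCm38.p6, which is not the build of the counts, and hold the 250 bases before an annotated start site, 5′ to 3′ on the gene's strand. Capitals mark ACAAAG or ACAATG, the core of SOX-type motifs, on either strand, so that CTTTGT and CATTGT are the same motifs read on the other strand.
Mobp (chr9:120149492-120149741, + strand): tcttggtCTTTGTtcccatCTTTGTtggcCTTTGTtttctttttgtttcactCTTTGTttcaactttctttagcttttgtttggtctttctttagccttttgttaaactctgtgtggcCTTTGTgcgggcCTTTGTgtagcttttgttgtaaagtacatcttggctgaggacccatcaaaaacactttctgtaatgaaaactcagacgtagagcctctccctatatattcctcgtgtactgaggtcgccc
Cnp (chr11:100574689-100574938, + strand): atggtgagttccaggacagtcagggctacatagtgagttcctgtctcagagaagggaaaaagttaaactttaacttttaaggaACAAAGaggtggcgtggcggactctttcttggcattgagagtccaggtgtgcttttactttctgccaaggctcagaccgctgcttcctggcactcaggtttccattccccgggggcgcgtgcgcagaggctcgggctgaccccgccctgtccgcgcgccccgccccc
Mag (chr7:30914864-30915113, - strand): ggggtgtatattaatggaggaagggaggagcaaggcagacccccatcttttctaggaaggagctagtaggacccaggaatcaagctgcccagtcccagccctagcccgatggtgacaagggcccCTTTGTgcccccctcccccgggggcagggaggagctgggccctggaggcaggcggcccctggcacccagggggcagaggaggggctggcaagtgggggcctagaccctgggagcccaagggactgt
Olig2 (chr16:91225300-91225549, + strand): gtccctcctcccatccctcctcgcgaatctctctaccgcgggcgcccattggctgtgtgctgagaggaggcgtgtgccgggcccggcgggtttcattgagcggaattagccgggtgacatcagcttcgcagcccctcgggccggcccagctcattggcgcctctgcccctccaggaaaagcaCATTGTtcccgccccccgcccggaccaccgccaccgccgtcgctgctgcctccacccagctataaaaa

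Motifs were counted on both strands in windows of 300 bases, 250 before and 50 after a start site, for 6 of the 9 members (8 windows) and for all 32851 windows of the RefSeq table. Olig1 and Sox10 had no window, and Mbp was not included. The Mobp window held ACAAAG 6 times, and it was the only 1 of the 32851 windows with as many. ACAAAG occurred in 18.7% of all windows, and 2 or more times in 2.37%. The Cnp window held it 1 time, as did 2 of the 3 Mag windows, which overlap and hold the same match. The Mog, Olig2 and Pdgfra windows did not hold it. ACAATG, which 12.6% of all windows held, was found 1 time before Olig2 and in no window of another of the 6 members. The general E-box CANNTG, in which N is any base, was present in 72.3% of all windows, among them those of Cnp, Mag and Pdgfra. Its forms CAGCTG (16.3%) and CATATG (3.91%) were in none of the 8 windows. TATAAA, which 13.6% of all windows held, was present only before Olig2 among the 6 members. A match of these letters is a description and not a binding site.

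The libraries were deep enough for all 9 members to pass edgeR's filter in every comparison. Total counts ran from 28833130 to 37441679 in the LMX1B experiment and from 14975095 to 17384171 in 4 AMPK libraries, while AMPK+/+ 2 and AMPK-/- 3 held only 291212 and 335986. In those 2 shallow libraries 3 counts, the limit that a count of 0 allows, equal 11.2 and 9.51 CPM (counts relative to the TMM-scaled total of each library), against 0.0635 to 0.225 CPM in the other 13, and this limit covers counting error only. The 10 Hox genes used as hindbrain markers were present in each group, at summed levels of 54.5 to 579 CPM. Prkaa2, which encodes AMPKα2, was at 24.9, 29.97 and 33.2 CPM in AMPK+/+ 1 to 3 and at 28.8, 25.7 and 12.7 CPM in AMPK-/- 1 to 3, so the groups overlapped and the count did not check the label. Lmx1b was at 21.2, 15.02 and 9.14 CPM in LMX1B+/+, 28.2, 10.7 and 13.3 CPM in LMX1B+/- and 1.34, 1.04 and 0.784 CPM in LMX1B-/- 1 to 3. It was thus low in every library labelled LMX1B-/- and not lower in those labelled LMX1B+/-, where the genotype is used as a label only.

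The order of the members by level per gene length differed between the prenatal and the newborn wild-type libraries. In LMX1B+/+, Olig1 led at 57.3 ± 8.98 RPKM (counts scaled by gene length and library total, SD, n = 3). Cnp at 14.2 ± 0.759, Olig2 at 13.4 ± 1.42 and Pdgfra at 12.5 ± 3.01 RPKM followed, and neighbours among these 3 overlapped. Below them came Mbp (7.68 ± 0.381 RPKM), Sox10 (6.53 ± 0.383), Mog (4.69 ± 0.696), Mag (1.25 ± 0.172) and Mobp (0.291 ± 0.0474), none of which overlapped the next. Thus a transcription factor of the lineage was the most abundant member and Mobp, a structural protein of compact myelin, the least.

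In AMPK+/+ the myelin genes headed the same list. Mbp, which encodes the basic protein that holds the membranes of compact myelin together, reached 1105 ± 294 RPKM and Mobp 383 ± 104 RPKM. Cnp (202 ± 46.0 RPKM), Mag (134 ± 37.2), Mog (87.4 ± 21.5) and Olig1 (79.5 ± 2.89) came next, and neighbours among these 4 overlapped. Sox10 at 28.7 ± 7.79, Olig2 at 11.6 ± 5.28 and Pdgfra at 4.54 ± 0.691 RPKM closed the order without overlap. The 4 ranks at the top were taken by the same genes in each of the 3 libraries.

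**Figure D1:**
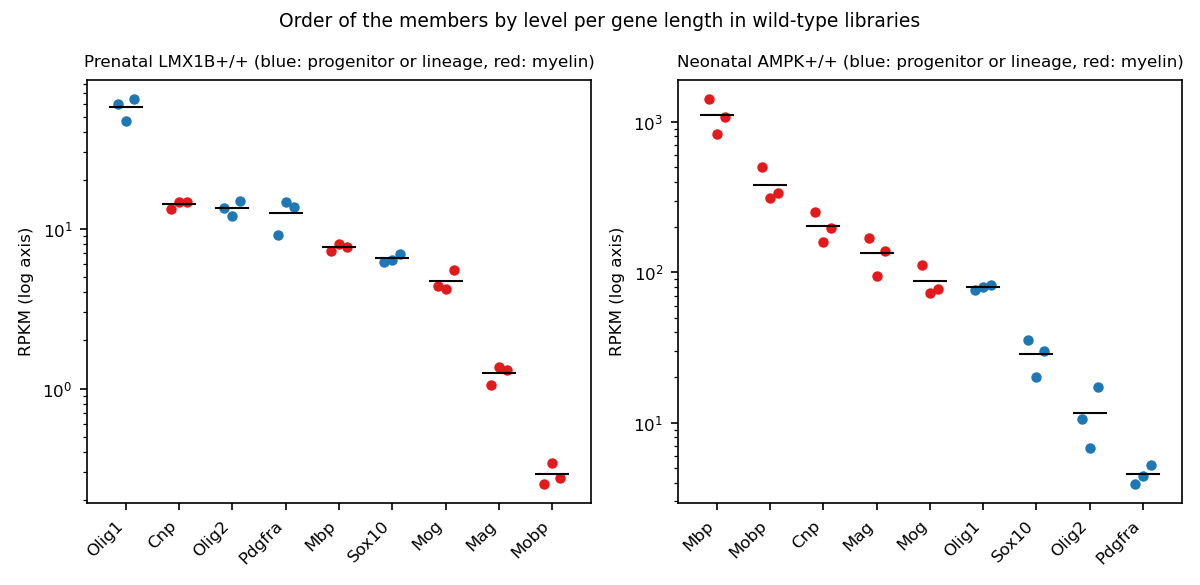
Levels per gene length of the 9 members in the 3 prenatal LMX1B+/+ libraries (left) and the 3 newborn AMPK+/+ libraries (right), in RPKM on a log axis. Points are libraries, bars are means, blue marks progenitor or lineage genes and red marks myelin genes. Olig1 leads the left panel at 57.3 RPKM and Mbp the right panel at 1105 RPKM.

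The first comparison sets the newborn AMPK+/+ libraries against the prenatal LMX1B+/+ libraries. All 5 myelin members were far higher in the newborn libraries, Olig1 and Sox10 were also higher, Pdgfra was lower, and Olig2 did not pass the test. In counts, 7 members were called higher, against 25.7% of all 22327 genes tested, and 1 lower, against 25.4%. Values did not overlap for 7 members that were higher in the newborn libraries (20.5% of all genes) and for 1 that was lower (28.9%). Age, experiment and depth changed together here and cannot be told apart. In bulk tissue, fewer cells of a type and less RNA per cell cannot be told apart either. Newborn is the study's word for its AMPK mice and serves here as a name only. Astrocyte markers summed to 5296 to 7712 CPM in AMPK+/+ against 1177 to 1660 CPM in LMX1B+/+, and neural progenitor markers to 105 to 233 CPM against 777 to 783 CPM. The age of the AMPK libraries was not tested, so their levels are not tied to a postnatal day.

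Among the lineage genes, Olig1, a basic helix-loop-helix factor needed for oligodendrocyte maturation, was at 185, 187 and 180 CPM in AMPK+/+ 1 to 3 and at 127, 95.4 and 106 CPM in LMX1B+/+ 1 to 3. All newborn values lay above all prenatal ones, with a log2 fold change of 0.75 (SE 0.15, edgeR quasi-likelihood adjusted p = 0.00035). Olig2, the related factor that specifies the lineage, was at 30.1, 18.7 and 44.1 CPM against 33.1, 28.3 and 28.4 CPM. Its groups overlapped, with the widest scatter among the newborn libraries and only 5 counts in the shallow AMPK+/+ 2, and the log2 difference of 0.26 (SE 0.18) had a quasi-likelihood adjusted p of 0.24.

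Sox10, the factor that acts from the progenitor through to the myelinating cell, was at 122, 67.4 and 92.9 CPM in AMPK+/+ and at 18.5, 18.3 and 16.1 CPM in LMX1B+/+. The lowest newborn value was thus well above the highest prenatal one, and the fold change was 5.76 (log2 2.53, SE 0.17, quasi-likelihood adjusted p = 1.5e-10). Pdgfra, the receptor for the growth factor PDGF-A that keeps progenitors dividing, went the other way, at 43.7, 48.7 and 53.4 CPM against 88.7, 138 and 104 CPM. It was 2.27-fold lower in the newborn libraries without overlap (log2 −1.18, SE 0.17, quasi-likelihood adjusted p = 8.6e-06). The 10 markers of meninges and fibroblasts, cells that also carry Pdgfra, summed to 96.9 to 268 CPM in AMPK+/+ and 357 to 480 CPM in LMX1B+/+, and their part in the difference was not tested.

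Of the myelin genes, Cnp, whose enzyme product lines the non-compact myelin and appears early in the lineage, was at 1020, 629 and 728 CPM in AMPK+/+ and at 47.4, 50.0 and 40.3 CPM in LMX1B+/+. Mbp was at 13401, 7656 and 9190 CPM against 60.2, 63.8 and 49.4 CPM. The fold changes were 17.5 for Cnp (log2 4.13, SE 0.19) and 175 for Mbp (log2 7.45, SE 0.24), with quasi-likelihood adjusted p of 9.2e-13 and 6.6e-15. Mag, an adhesion protein of the inner myelin layer next to the axon, was at 768, 420 and 569 CPM against 4.17, 5.22 and 4.06 CPM. Mog, a surface protein of the outermost layer, was at 214, 135 and 134 CPM against 7.31, 6.68 and 7.09 CPM. Mag was 134-fold (log2 7.07, SE 0.26) and Mog 23.7-fold higher (log2 4.57, SE 0.19), with quasi-likelihood adjusted p of 3.4e-14 and 2.7e-13.

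Mobp showed the largest change of the 9 members. It stood at 3849, 2330 and 2319 CPM in AMPK+/+ 1 to 3 and at 1.69, 2.21 and 1.44 CPM in LMX1B+/+ 1 to 3, the latter from 51, 68 and 68 counts. On the log2 scale the difference was 10.66 (SE 0.31, quasi-likelihood adjusted p = 2.6e-15). Within AMPK+/+, each of the 5 myelin members was highest in library 1. The 9 Schwann cell markers used here summed to 97.4 to 131 CPM in AMPK+/+ and 22.5 to 23.1 CPM in LMX1B+/+, with Pmp2 at 0 in every library of both groups, and their part in the myelin values was not tested.

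**Figure D2:**
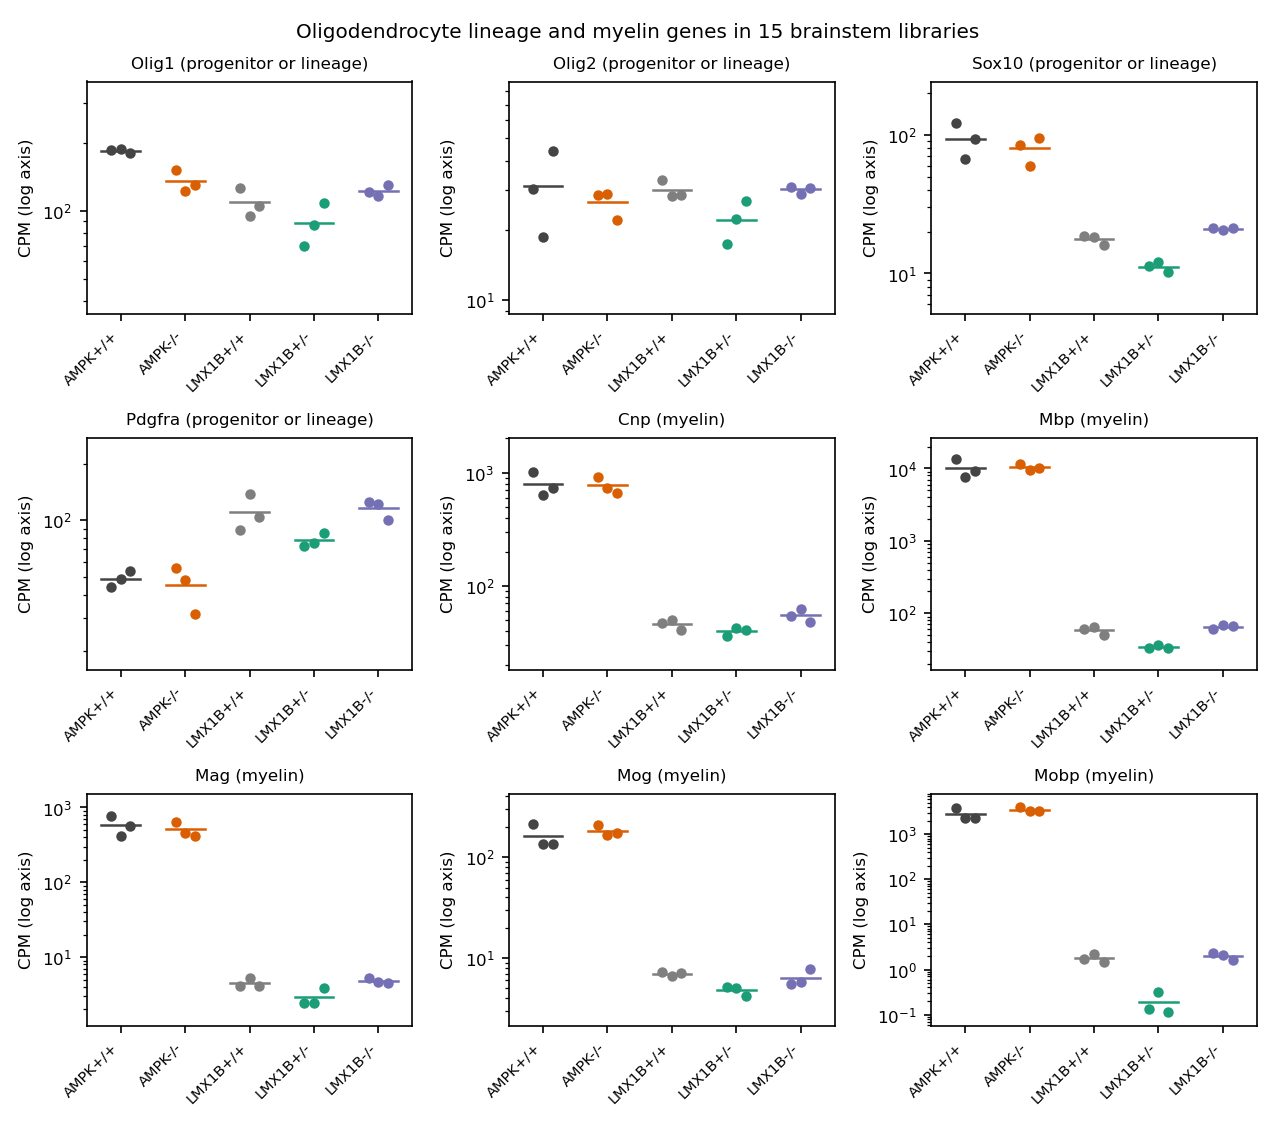
CPM of each member in all 15 libraries on a log axis, with 1 panel per gene, points for libraries and bars for group means of 3. Myelin genes such as Mobp differ by orders of magnitude between the AMPK and LMX1B experiments, and Pdgfra is the only panel with its lowest values in the AMPK libraries.

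Other genes of the lineage were grouped by stage, in lists written from general knowledge. In the newborn libraries all 24 other myelin genes were called higher, against 25.7% of all genes tested. Their median log2 fold change was 6.05 beside −0.03 for all genes. They included Mal (log2 7.99, a proteolipid of compact myelin), Gjb1 (7.17, a gap junction protein) and Plekhb1 (6.19). Klk6 was at 0 in all 3 LMX1B+/+ libraries and was at least 899-fold higher in AMPK+/+, against the limit of 3 counts in 1 library, and the list's median was the same with this bound. Without Klk6, Opalin and Ninj2, which had few or no prenatal counts, the other 21 ran from 1.17 to 10.48 in log2 fold change.

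The 12 premyelinating genes were listed for cells that have just left the progenitor state. The part of other cells in their levels was not tested. In LMX1B+/+, Enpp6 was at 2.71 to 4.31 CPM and Fyn at 134 to 150 CPM. The 12 genes were split, with 7 called higher and 5 lower. Bcas1 (log2 5.34), Myrf (5.15, the factor that switches on myelin genes), Enpp6 (3.72) and Nkx6-2 (3.03) had the smallest adjusted p among those higher, and the 5 lower were Rras2 (−2.31), Fyn (−0.96), Tcf7l2 (−4.37), Tmem163 (−0.97) and Bmp4 (−1.87). Of the 18 other progenitor genes, 9 were called lower and 5 higher. Of all genes tested, 25.4% were called lower and 25.7% higher, so the number called higher was close to that share. Vcan (−2.37, a matrix proteoglycan) and Ptprz1 (−1.42, a receptor phosphatase) were among those lower. The 5 higher were Bcan (1.04), Sox8 (1.18), Lims2 (1.24), Matn4 (1.76) and Lhfpl3 (0.37). Astrocyte markers moved in the same comparison, with 6 of 8 called higher and 1 lower, and neural progenitor markers with 7 of 8 called lower.

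**Figure D3:**
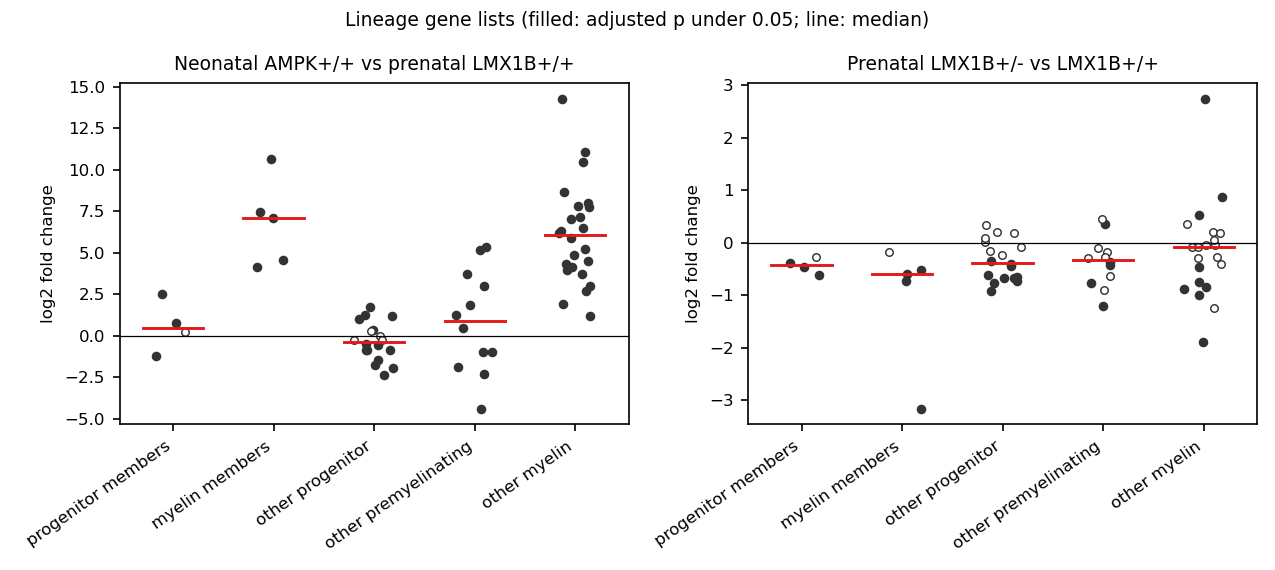
Log2 fold changes of the members and of the other lineage genes by stage, for newborn AMPK+/+ against prenatal LMX1B+/+ (left) and for LMX1B+/- against LMX1B+/+ (right). Points are genes, filled where the adjusted p was under 0.05, and red lines are list medians; on the left the other myelin genes have a median of 6.05, on the right of −0.09.

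Within the LMX1B experiment, the comparisons address how the labelled genotype of this LIM homeodomain factor bears on the prenatal brainstem. Lmx1b itself was not lower in the libraries labelled LMX1B+/-, so the differences of these libraries are tied to the label and not to a measured loss of the transcript. In libraries labelled LMX1B+/-, 7 of the 9 members were lower than in LMX1B+/+, against 17.3% of all 21729 genes tested that were called lower. Sox10, Olig2 and Pdgfra fell among the lineage genes, and Mobp, Mbp, Mag and Mog among the myelin genes, while Olig1 and Cnp did not pass the test. The 7 were also the members whose groups did not overlap, beside 24.1% of all genes with non-overlapping lower values. In all, 36.7% of the genes tested were called in one direction or the other in this comparison.

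Mobp differed most, at 0.134, 0.321 and 0.112 CPM in LMX1B+/- 1 to 3 against 1.69, 2.21 and 1.44 CPM in LMX1B+/+ 1 to 3. The LMX1B+/- values rest on 4, 11 and 4 counts, of which the first and the last are just above the limit of 3. All 3 were below every LMX1B+/+ value, which made an 8.96-fold lower level (log2 −3.16, SE 0.38, quasi-likelihood adjusted p = 4.6e-05). Mbp, with counts of 983 to 2332 in these libraries, was at 32.8, 35.9 and 33.1 CPM against 60.2, 63.8 and 49.4 CPM. It was 1.67-fold lower without overlap (log2 −0.74, SE 0.11, quasi-likelihood adjusted p = 0.0002).

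Mag was at 2.40, 2.42 and 3.88 CPM in LMX1B+/- and at 4.17, 5.22 and 4.06 CPM in LMX1B+/+, where the gap between LMX1B+/- 3 and LMX1B+/+ 3 was small. Mog was at 5.14, 5.08 and 4.25 CPM against 7.31, 6.68 and 7.09 CPM, with a clear gap. The log2 fold changes were −0.59 for Mag (SE 0.20, quasi-likelihood adjusted p = 0.036) and −0.51 for Mog (SE 0.17, quasi-likelihood adjusted p = 0.028). Cnp was at 36.1, 42.2 and 40.8 CPM in LMX1B+/-, and LMX1B+/- 2 and 3 were above LMX1B+/+ 3 (40.3 CPM). Its log2 fold change of −0.18 (SE 0.12) had a quasi-likelihood adjusted p of 0.28 and a 95% interval from −0.41 to 0.06.

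Of the lineage genes, Sox10 was at 11.4, 12.1 and 10.2 CPM in LMX1B+/- against 18.5, 18.3 and 16.1 CPM in LMX1B+/+. It was 1.54-fold lower with little scatter in either group (log2 −0.62, SE 0.11, quasi-likelihood adjusted p = 0.001). Olig2 was at 17.4, 22.5 and 26.8 CPM against 33.1, 28.3 and 28.4 CPM, with LMX1B+/- 3 close to the LMX1B+/+ values. Pdgfra was at 73.1, 75.6 and 85.2 CPM against 88.7, 138 and 104 CPM, where LMX1B+/+ 2 was the highest. The log2 fold changes were −0.40 for Olig2 (SE 0.14, quasi-likelihood adjusted p = 0.036) and −0.47 for Pdgfra (SE 0.15, quasi-likelihood adjusted p = 0.024). Olig1, at 69.8, 86.5 and 108 CPM in LMX1B+/-, overlapped LMX1B+/+ through LMX1B+/- 3, and its log2 fold change of −0.28 (SE 0.15) had a quasi-likelihood adjusted p of 0.15 and a 95% interval from −0.56 to 0.01.

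The number of members called depended on single libraries and on the fit. It was 5 when only the 2 groups compared were fitted, where Olig2 and Mag lost the call, and 4 with the replicate number as a block, where Mog did too. It was 4 without LMX1B+/+ 1, LMX1B+/+ 3, LMX1B+/- 1 or LMX1B+/- 2, 5 without LMX1B+/+ 2 and 7 without LMX1B+/- 3. Sox10, Mbp and Mobp passed in each of the 11 alternatives, and Olig2, Pdgfra, Mag and Mog lost the call in at least 1. Other measures differed between these groups or overlapped as follows. The share of counts on mitochondrially encoded genes was 9.58 to 14.7% in LMX1B+/- and 5.57 to 6.74% in LMX1B+/+. Astrocyte markers were called lower in 4 of 8 cases, beside 17.3% of all genes. Their sums were 963 to 1134 CPM against 1177 to 1660 CPM. Of the hindbrain Hox genes 5 of 10 were called higher, and of the neural progenitor markers 3 of 8 higher and 1 lower. Motor neuron markers, a lineage that shares OLIG2, summed to 101 to 130 CPM against 70.6 to 112 CPM, with 2 of 9 called higher beside 19.4% of all genes. Meningeal markers were at 220 to 528 CPM against 357 to 480 CPM, with 3 of 10 called lower, and the sums of both lists overlapped between the groups. The part of these in the values of the members was not tested.

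Of the 18 progenitor genes outside the members, 10 were called lower and 0 higher in the same libraries and 8 were not called. Of all genes tested, 17.3% were called lower and 19.4% higher. The median log2 fold change of the 18 was −0.38 beside −0.03 for all genes. Gpr17, a receptor of progenitors about to differentiate, was at 29.0, 30.0 and 33.0 CPM in LMX1B+/- and at 56.9, 73.5 and 48.0 CPM in LMX1B+/+ (log2 −0.92, SE 0.13). Cspg4, which encodes the NG2 proteoglycan, fell by 0.78, Bcan by 0.67 and Pcdh15 by 0.67 on the log2 scale. Among 12 premyelinating genes, 4 were called lower, Myrf (−1.21), Itpr2 (−0.77), Tns3 (−0.44) and Bcas1 (−0.37), and Rras2 (0.36) was called higher. Myrf went from 5.26, 5.90 and 4.32 CPM in LMX1B+/+ to 1.90, 2.48 and 2.15 CPM in LMX1B+/-.

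The other myelin genes were mixed, unlike the 5 members. Of 21 tested, 6 were called lower and 3 higher, beside 17.3% of all genes called lower and 19.4% higher, and the median was −0.09. Fa2h, which makes the hydroxylated fatty acids of myelin lipids, fell by 1.89 on the log2 scale and Apod by 0.88. Those that rose were Ermn (2.75), Gjb1 (0.87) and Cd9 (0.53). Ermn, a cytoskeletal protein of myelin, was at 2.60, 0.963 and 1.01 CPM in LMX1B+/- against 0.165, 0.195 and 0.296 CPM in LMX1B+/+, with 5 to 14 counts per LMX1B+/+ library. Klk6 was at 0 in all 9 LMX1B libraries.

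The libraries labelled LMX1B-/- were compared with LMX1B+/- and with LMX1B+/+. These comparisons share libraries with each other and with the one above, so their values are given side by side and not as separate evidence. Against LMX1B+/-, 8 of 9 members were called higher in LMX1B-/- (11.5% of all genes), all but Mog. All 9 had non-overlapping higher values, beside 21.5% of all genes. Against LMX1B+/+, 0 of 9 members were called by edgeR's quasi-likelihood test, where only 0.0184% of all genes (4) were called. At an unadjusted p under 0.05 there were 2 members, Sox10 and Cnp, and DESeq2 called 0.

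Mobp was at 2.35, 2.13 and 1.62 CPM in LMX1B-/- 1 to 3, from 79, 78 and 66 counts, far above every LMX1B+/- library and overlapping LMX1B+/+. The log2 fold changes were 3.39 against LMX1B+/- (SE 0.37, quasi-likelihood adjusted p = 6.1e-05) and 0.22 against LMX1B+/+ (SE 0.29, quasi-likelihood adjusted p = 0.85). Mbp was at 60.3, 67.8 and 66.0 CPM, with log2 fold changes of 0.93 (SE 0.11, quasi-likelihood adjusted p = 8.5e-05) and 0.19 (SE 0.11). Cnp was at 54.0, 63.0 and 47.8 CPM, above all LMX1B+/- values and overlapping LMX1B+/+ only through LMX1B-/- 3. Its log2 fold changes were 0.47 (SE 0.12, quasi-likelihood adjusted p = 0.013) and 0.29 (SE 0.12, quasi-likelihood adjusted p = 0.59).

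Mag was at 5.20, 4.67 and 4.58 CPM in LMX1B-/-, with log2 fold changes of 0.72 against LMX1B+/- (SE 0.20, quasi-likelihood adjusted p = 0.019) and 0.13 against LMX1B+/+ (SE 0.20). Mog, at 5.50, 5.76 and 7.86 CPM, lay just above LMX1B+/- in 2 libraries and above LMX1B+/+ in LMX1B-/- 3. It was the member with the smallest log2 fold change against LMX1B+/- (0.40, SE 0.17, quasi-likelihood adjusted p = 0.096), and the value against LMX1B+/+ was −0.11 (SE 0.16).

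Sox10 was at 21.4, 20.4 and 21.4 CPM in LMX1B-/-, the only member whose LMX1B-/- values all lay above those of LMX1B+/+, as did 9.84% of all genes. Its log2 fold change came to 0.91 against LMX1B+/- (SE 0.11, quasi-likelihood adjusted p = 0.00014) and 0.29 against LMX1B+/+ (SE 0.11, quasi-likelihood adjusted p = 0.57). Olig1 was at 122, 116 and 130 CPM, Olig2 at 30.8, 28.8 and 30.6 CPM and Pdgfra at 125, 123 and 101 CPM. These 3 rose against LMX1B+/- by 0.47, 0.43 and 0.57 on the log2 scale, with quasi-likelihood adjusted p of 0.03, 0.033 and 0.013. Against LMX1B+/+ they overlapped, and the log2 fold changes were 0.19, 0.04 and 0.10, with 95% intervals from −0.09 to 0.48, −0.23 to 0.30 and −0.18 to 0.39.

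The count of 8 members against LMX1B+/- was 4 without LMX1B+/- 1 or LMX1B-/- 1, 5 without LMX1B+/- 2 or LMX1B-/- 2, and 6 without LMX1B-/- 3. Sox10, Mbp and Mobp again passed in all 11 alternatives. Mitochondrially encoded genes took 7.23 to 7.98% of counts in LMX1B-/-, below LMX1B+/- and above LMX1B+/+. Of 8 astrocyte markers, 5 were called higher against LMX1B+/-, beside 11.5% of all genes. The part of these was not tested.

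Of the 18 other progenitor genes, 9 were called higher in LMX1B-/- than in LMX1B+/- and 2, Id4 (−0.51) and Id2 (−0.39), lower. Of all genes, 11.5% were called higher and 14.0% lower. Gpr17 had the smallest adjusted p (log2 1.32), followed by Bcan (0.94), Cspg4 (0.78) and Sox6 (0.52), a factor that holds progenitors immature. Of 12 premyelinating genes, 5 were called higher, Myrf (1.50), Bcas1 (0.89), Itpr2 (0.84), Tns3 (0.62) and Enpp6 (0.99), and Rras2 (−0.33) was called lower. Of 21 other myelin genes, 3 were called higher, close to the 11.5% of all genes, among them Fa2h (2.13) and Tspan2 (0.51), and 1, Cd9 (−0.52), lower. Ermn, at 0.772, 1.01 and 0.735 CPM in LMX1B-/-, was not called against LMX1B+/- (−0.85, quasi-likelihood adjusted p = 0.13) or against LMX1B+/+ (1.90, quasi-likelihood adjusted p = 0.49), and its values were above those of LMX1B+/+. Against LMX1B+/+, 0 of the 51 other lineage genes tested were called by the quasi-likelihood test.

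**Figure D4:**
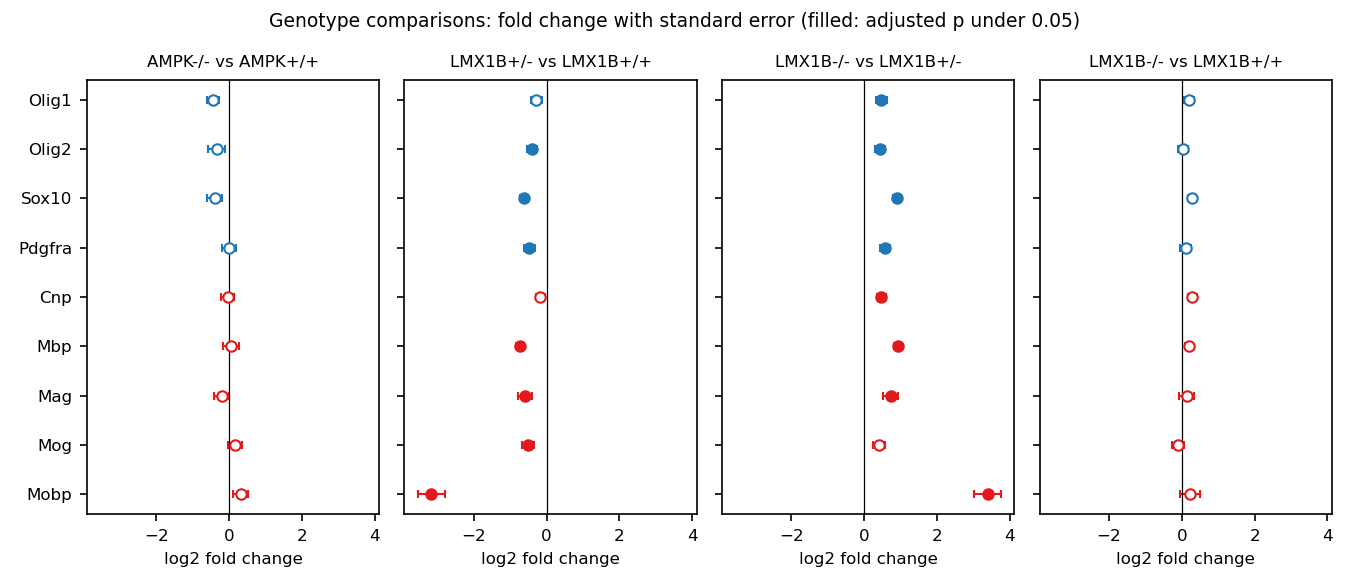
Log2 fold changes of the 9 members with standard errors in the 4 genotype comparisons, filled where the adjusted p was under 0.05, blue for progenitor or lineage genes and red for myelin genes. All points lie below 0 for LMX1B+/- against LMX1B+/+ and above 0 for LMX1B-/- against LMX1B+/-, with Mobp farthest out at −3.16 and 3.39, and no point is filled in the other 2 panels.

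In the AMPK experiment, 0 of 9 members were called between AMPK-/- and AMPK+/+ by edgeR's quasi-likelihood test, beside 8.94% of all 17397 genes tested. At an unadjusted p under 0.05 there was 1, Olig1, and DESeq2 called 0. Olig1 was also the 1 member whose groups did not overlap, lower in AMPK-/- like 12.7% of all genes. It was at 152, 123 and 130 CPM in AMPK-/- 1 to 3 against 185, 187 and 180 CPM in AMPK+/+ 1 to 3, with a log2 fold change of −0.43 (SE 0.16, quasi-likelihood adjusted p = 0.1).

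The remaining lineage genes overlapped. Olig2 was at 28.5, 28.9 and 22.2 CPM in AMPK-/-, within the range of AMPK+/+, and Sox10 at 85.2, 60.2 and 95.1 CPM against 122, 67.4 and 92.9 CPM. Their log2 fold changes were −0.34 (95% interval −0.80 to 0.12) and −0.39 (95% interval −0.80 to 0.02). Pdgfra was at 55.7, 47.9 and 31.7 CPM, the last from 10 counts in the shallow AMPK-/- 3, and its log2 fold change was 0.00 (95% interval −0.39 to 0.39). Meningeal and fibroblast markers summed to 175 to 332 CPM in AMPK-/- and 96.9 to 268 CPM in AMPK+/+. Of 9 tested, 3 were called higher and 0 lower, beside 3.77% of all genes called higher, and their part in the Pdgfra values was not tested.

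The 5 myelin genes also overlapped between AMPK-/- and AMPK+/+, and none passed the test. Mbp was at 11506, 9548 and 10094 CPM and Mobp at 4001, 3195 and 3299 CPM in AMPK-/- 1 to 3. Cnp was at 919, 730 and 666 CPM, Mag at 647, 459 and 422 CPM and Mog at 210, 166 and 174 CPM. The log2 fold changes were 0.06 for Mbp, 0.32 for Mobp, −0.03 for Cnp, −0.20 for Mag and 0.16 for Mog. Their 95% intervals ran from −0.59 at the lowest to 0.71 at the highest. AMPK+/+ 1 was the highest of its group for all 5, and without it Mobp was called higher in AMPK-/- (log2 0.60), the only member called with any library left out. Without both shallow libraries 0 members were called.

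In the wider lists, 1 of 18 progenitor genes, 1 of 12 premyelinating genes and 0 of 24 myelin genes were called, both of them lower in AMPK-/- (5.17% of all genes were called lower and 3.77% higher). Bcan, a proteoglycan of the perineuronal matrix, measured 195, 174 and 133 CPM in AMPK-/- against 299, 232 and 284 CPM in AMPK+/+ (log2 −0.68, SE 0.17, quasi-likelihood adjusted p = 0.014). Myrf measured 110, 85.6 and 82.4 CPM in AMPK-/- against 189, 127 and 200 CPM in AMPK+/+ (log2 −0.93, SE 0.18, quasi-likelihood adjusted p = 0.0036). The groups did not overlap for either gene. Both lost the call without the 2 shallow libraries, at a quasi-likelihood adjusted p of 0.14 for Bcan (log2 −0.67) and 0.12 for Myrf (log2 −1.01), and Bcan also without AMPK-/- 3 (log2 −0.58, quasi-likelihood adjusted p = 0.085). Mitochondrially encoded genes took 20 to 21.7% of counts in AMPK-/- and 10.4 to 13.9% in AMPK+/+, and skeletal muscle markers summed to 997 CPM in AMPK+/+ 3 against at most 13.5 CPM in the other AMPK+/+ libraries. Motor neuron markers were at 154 to 313 CPM in AMPK-/- and 17.3 to 129 CPM in AMPK+/+. Their part was not tested.

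The contrast between the classes was summarised per library as the mean log2 CPM of the 5 myelin members minus that of the 4 progenitor members. It was 3.70 to 4.38 in AMPK+/+ and 4.29 to 4.39 in AMPK-/-. In the prenatal libraries it was negative, at −2.27 to −2.08 in LMX1B+/+, −2.90 to −2.61 in LMX1B+/- and −2.25 to −2.15 in LMX1B-/-. The experiments differed more on the myelin side, with a mean log2 CPM of 9.84 to 10.59 in AMPK+/+ against 3.29 to 3.60 in LMX1B+/+, while the progenitor side was at 5.87 to 6.31 against 5.57 to 5.68. That progenitor mean joins changes in opposite directions, with log2 fold changes from −1.18 for Pdgfra to 2.53 for Sox10. It does not show that each progenitor member was stable.

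In fitted log2 fold changes, the myelin mean exceeded the progenitor mean by 6.19 between AMPK+/+ and LMX1B+/+ and by 0.35 between AMPK-/- and AMPK+/+. Between LMX1B+/- and LMX1B+/+ the myelin members fell by 1.04 on average and the progenitor members by 0.44, a difference of −0.60. That difference rested on Mobp. Without Mobp, a choice made after seeing the data, it was −0.063, and per library the contrast then overlapped among the 3 LMX1B genotypes, at −1.60 to −1.48, −1.70 to −1.51 and −1.68 to −1.54. On log2(RPKM + 0.1) it was −0.22.

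**Figure D5:**
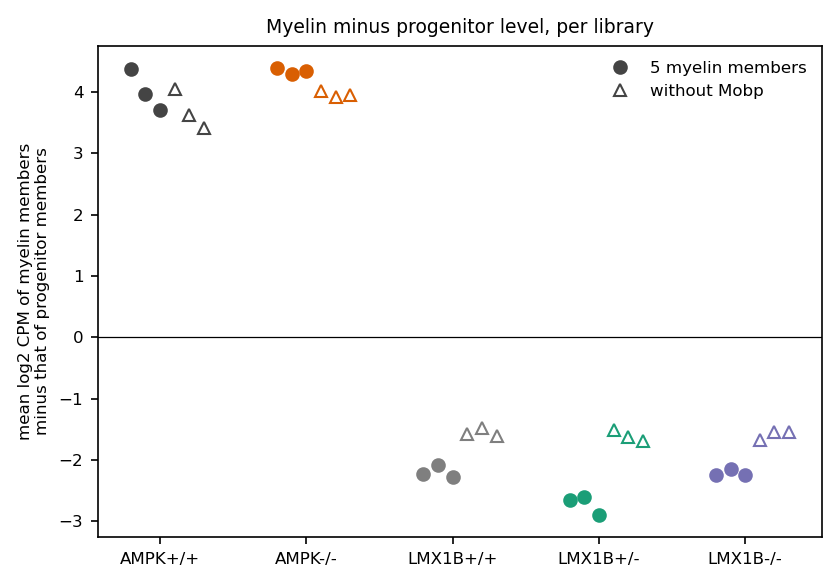
Mean log2 CPM of the myelin members minus that of the progenitor members in each of the 15 libraries, with filled circles for all 5 myelin members and open triangles without Mobp. The AMPK libraries lie above 0 and the LMX1B libraries below it, and the lower position of LMX1B+/- (−2.90 to −2.61) is not seen in the triangles.

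Some members share sequence with other annotated genes. In GENCODE, exons of Cnp overlap those of Dnajc7 on the opposite strand, which had up to 5655 counts in a library, and exons of Mobp overlap Gm38642 on the same strand, which had at most 22. The overlapping genes of Olig1 and Pdgfra had at most 3 counts. The library kit marks the strand, but the sources used here do not say whether counting used it, so reads shared by Cnp and Dnajc7 cannot be told apart.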

How the data were processed

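RNA from brainstem was made into strand-marking libraries and sequenced on an Illumina instrument, per the labels. The authors aligned the reads with HISAT2 to GRCm39, per the submitters' processing notes, and deposited raw counts per gene for each of the 2 experiments. They also deposited RPKM, which are those counts divided by gene length and library total. How reads were counted per gene is not given in the sources used here. Columns were matched to samples by genotype and number. The tables held 0 columns that belong to no sample of the series. The column used as AMPK+/+ 3 carries an unexplained suffix, and the one used as LMX1B+/+ 3 carries the number 4 of its library name. A symbol was matched to 51884 of 57180 Ensembl identifiers (90.7%).

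Differences in counts were fitted with edgeR 4.0.16 under R 4.3.3 (filterByExpr defaults, TMM, quasi-likelihood F-test, Benjamini-Hochberg over all tested genes, called at an adjusted p under 0.05), with genotype group as the only term. The fits held the 6 AMPK libraries, the 9 LMX1B libraries, or all 15 for the comparison across experiments. The CPM printed are on 1 TMM scale for all 15 libraries, while each test used its own fit. Log2 CPM used a prior count of 2 and log2 RPKM a pseudocount of 0.1. The scripts were tested on simulated data.

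The members and gene lists were chosen with earlier results of these data known. Named are the 9 members, Prkaa2 and Lmx1b, per comparison and lineage list the 4 called genes with the smallest adjusted p, and the 5 genes closest to each class profile; genes behind counts of 5 or fewer were named after their values were seen. Some genes that this rule names are not reported here. The other lists were Schwann cell, meninges and fibroblast, motor neuron, neuron, astrocyte, neural progenitor, skeletal muscle, choroid plexus and hindbrain Hox markers. Alternatives were DESeq2 1.42.0, RLE size factors, no filter, only the 2 groups compared, a replicate block, each library left out, both shallow libraries left out, log2 RPKM, and the contrast without Mbp or, added after seeing the data, without Mobp. Promoter sequences and exon overlaps come from RefSeq and GENCODE tables of an earlier build, and no coordinates of the counted genes are given.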

Additional observations from a re-analysis of the deposited data

How the results depend on the processing

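For LMX1B+/- against LMX1B+/+, the 7 members called became 4 with the replicate number as a block, 5 with only the 2 groups fitted, and 4 to 7 with 1 library left out. For LMX1B-/- against LMX1B+/- the 8 became 4 to 8 with 1 library left out, and for AMPK-/- against AMPK+/+ the 0 became 0 to 1. The numbers AMPK+/+ against LMX1B+/+ (8) and LMX1B-/- against LMX1B+/+ (0) did not change under any alternative run. Same-numbered libraries did not deviate together throughout (r of −0.174 to 0.141 over genes), so the number was not taken to pair them, and the block gave 7 members for LMX1B-/- against LMX1B+/-. For LMX1B-/- and LMX1B+/+ each library's deviations were closest to those of its own number, a hint from the data only. The study calls the LMX1B+/+ mice littermates, but the sources used here tie no number to a litter.

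The myelin minus progenitor difference became −0.063 without Mobp and −0.22 on log2 RPKM for LMX1B+/- against LMX1B+/+. For LMX1B-/- against LMX1B+/- it became 0.034 without Mobp, 0.19 on log2 RPKM and 0.48 to 0.71 with 1 library left out. It was 5.22 without Mobp and 5.90 to 6.35 with 1 library left out between AMPK+/+ and LMX1B+/+, and 0.16 to 0.63 with 1 left out between AMPK-/- and AMPK+/+. Signs turned only for uncalled values. For AMPK-/- against AMPK+/+ the log2 fold changes ran, with 1 library left out, from −0.50 to 0.0055 for Olig2, −0.13 to 0.16 for Pdgfra, −0.16 to 0.19 for Cnp, −0.096 to 0.31 for Mbp, −0.40 to 0.029 for Mag and −0.0051 to 0.46 for Mog. Pdgfra was at −0.016 with DESeq2 and −0.0020 with RLE, and Mbp at −0.12 without both shallow libraries. For LMX1B-/- against LMX1B+/+ they ran from −0.029 to 0.11 for Olig2 and −0.030 to 0.30 for Pdgfra, and between AMPK+/+ and LMX1B+/+ from −0.0083 to 0.43 for Olig2. The cause was not tested. 

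Over all genes, the number called between AMPK-/- and AMPK+/+ was 1555, and 680 with DESeq2, 548 to 2958 with 1 library left out and 6 without both shallow libraries. Between LMX1B-/- and LMX1B+/+ it was 4, and 34 with DESeq2, 329 without the filter, 13 with only the 2 groups and 3 to 11 with 1 library left out. Between LMX1B-/- and LMX1B+/- it was 5544, and 3500 to 6054 with 1 library left out.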

Other observations

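Genes whose profile over the 13 deeper libraries was closest to the mean of each class were sought among 15016 genes, as the root mean square difference of mean-centred log2 CPM. For the myelin members these included Tmem88b (0.39), Cryab (0.40, a small heat shock protein), Trf (0.42, transferrin) and ENSMUSG00000120976 (0.51). For the progenitor members they were Qsox1 (0.10), Tyro3 (0.11, a receptor tyrosine kinase), Myrip (0.11), Ccdc141 (0.11) and Mfn1 (0.12). The progenitor profile is a mean over genes that moved in opposite directions between the experiments, with Sox10 and Olig1 higher and Pdgfra lower in AMPK+/+. It varied less over the libraries, so a small difference is easier to reach there, and the libraries share experiment and depth.

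Markers of neurons summed to 4303 to 4838 CPM in AMPK+/+, 5261 to 5615 CPM in AMPK-/- and 4337 to 5553 CPM across the LMX1B libraries. These sums join changes in opposite directions. Between AMPK+/+ and LMX1B+/+, 3 of 8 were called higher and 4 lower, beside 25.7% and 25.4% of all genes. Between AMPK-/- and AMPK+/+, 4 were called higher and 1 lower, beside 3.77% and 5.17%. Between LMX1B+/- and LMX1B+/+, 2 were called higher and 2 lower, beside 19.4% and 17.3%. Choroid plexus markers ranged from 150 to 1605 CPM in LMX1B+/- and from 161 to 1316 CPM in LMX1B-/-, against 281 to 423 CPM in LMX1B+/+.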
